A study of Mus musculus with 5 samples.

Results

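The COQ genes encode the mitochondrial machinery that makes coenzyme Q (ubiquinone), and 10 of them (Coq2, Coq3, Coq4, Coq5, Coq6, Coq7, Coq8a, Coq8b, Coq9 and Coq10a) were examined here in mouse tibialis anterior (TA) muscle. They were picked by gene name, each name matched a single row, and they make up 10 of the 17015 genes in the table. All 10 passed the minimum applied before testing, a mean of 0.5 FPKM, as did 12148 genes in all. FPKM counts the fragments of a gene after scaling for transcript length and for differences between libraries. The mice were 8-week-old males that were not exercise trained. The 3 WT control libraries come, by the study's methods, from Cre-negative littermates, and the 2 libraries labelled skmNrip1-/- come from mice in which Cre driven by the myogenin promoter removes floxed exon 4 of Nrip1, which holds the whole coding sequence, in skeletal muscle. By the study's own legend both groups had equally many mice, and any further library labelled skmNrip1-/- is not analysed here. The floxed line was C57BL/6J and the Cre line C57BL/6JN. Myogenin is a gene of the muscle lineage, so the vessel, nerve, blood and connective tissue cells that are also in a TA sample should keep the allele. The comparison asks how muscle expression of these genes differs when RIP140, the coregulator that Nrip1 encodes, is removed. The groups may also differ at other loci where the floxed and Cre lines differ. Such a difference cannot be told apart from the loss of RIP140 here.

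Coenzyme Q is a lipid with a quinone head and a long isoprenoid tail that carries electrons within the inner mitochondrial membrane. It takes them from complex I, complex II and several dehydrogenases, including the one that receives electrons from fatty acid oxidation, and passes them to complex III. Cells build it by joining a tail from the mevalonate pathway to a benzoate ring and then modifying that ring, and most of the ring enzymes work together in a membrane-bound assembly. Skeletal muscle with many mitochondria has a high demand for it, and inherited defects of COQ genes cause muscle, kidney and cerebellar disease.

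The value of the targeted gene was higher in the libraries labelled skmNrip1-/-. Nrip1 (ENSMUSG00000048490) had FPKM values of 4.64, 7.69 and 6.55 in the WT control samples, taken here and throughout in the order of their replicate numbers, and of 25.3 and 22.5 in the samples labelled skmNrip1-/-. The table has a single value per gene, which may also count exons that are not deleted, and cannot isolate the deleted exon. The study checked the line through Nrip1 RNA and RIP140 protein in gastrocnemius and heart. The FPKM values alone do not show whether the labels or the transcripts counted account for the difference, which was not tested. Every direction below is given by the labels. Listed markers of skeletal muscle fibers were abundant in all 5 libraries, with Acta1, the skeletal muscle actin, between 14369 and 21925 FPKM. Libraries differed by transcript length, read as median log2 level relative to the WT control mean. In WT control replicate 1 it was 0.17 for genes with transcripts of at most 1500 nucleotides and -0.08 for those of at least 4000 nucleotides. WT control replicate 2 lay on the other side, at -0.15 and 0.07, and replicate 3 was at -0.0054 and 0.0028. The libraries labelled skmNrip1-/- were at -0.0053 and -0.0068 in replicate 1 and at -0.10 and 0.05 in replicate 2. Genes encoded by mitochondrial DNA held 45.4% to 50.7% of the summed FPKM in WT control and 58.6% and 60.9% in the libraries labelled skmNrip1-/-.

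In these data, 7 of the 10 COQ genes had higher FPKM in both libraries labelled skmNrip1-/- than in every WT control library, and the other 3 overlapped. The 7 were Coq8a, Coq6, Coq5, Coq9, Coq7, Coq3 and Coq10a, with ratios of group mean FPKM from 1.21 for Coq10a to 1.80 for Coq8a. Among all genes tested, 15.8% were higher in this sense and 14.4% lower. Coq2, Coq4 and Coq8b, whose groups overlapped, had ratios of 0.980, 0.956 and 0.869. A call needed an adjusted p no higher than 0.05 and a fold change of at least 1.2 (limma, Benjamini-Hochberg adjustment over all genes tested). None of the 10 COQ genes met it, against 0.453% of all genes, of which 0.37% were higher and 0.0823% lower. Before adjustment, 5 of the 10 were higher at a p of 0.05 or less (Coq5, Coq6, Coq7, Coq8a and Coq9), against 6.57% of all genes tested, and none was lower, against 5.33%. Without skmNrip1-/- replicate 1, 2 of the 10 were higher, against 3.39% of all genes.

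The median log2 fold change of the 10 genes was 0.31, and that of all genes tested was -0.00054. The log2 fold change was above 0 for 7 of the 10 genes and for 49.9% of all genes tested. The deposited values were already scaled to an equal median ratio between libraries, which by itself holds these all-gene values near no difference. In single libraries, the median of the COQ genes relative to the WT control mean was 0.025, -0.022 and 0.053 for WT control, and 0.37 and 0.28 for the libraries labelled skmNrip1-/-. These medians did not overlap between groups. Each WT control library is part of the mean it was compared with, which draws its median towards 0. The scaling of the libraries bears on these counts. Rescaling to TPM (each library summing to the same total) moved the median of all genes to -0.29 and left 3 COQ genes higher without overlap (Coq5, Coq6 and Coq8a) and 3 lower without overlap (Coq2, Coq4 and Coq8b), against 2.8% and 49.6% of all genes tested. At a p of 0.05 or less, 1 COQ gene (Coq6) was then higher, against 1.33% of all genes, and 1 (Coq2) was lower, against 29.1%. At that scale the median of the COQ genes was 0.016, which is 0.31 above the median of all genes.

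**Figure D1:**
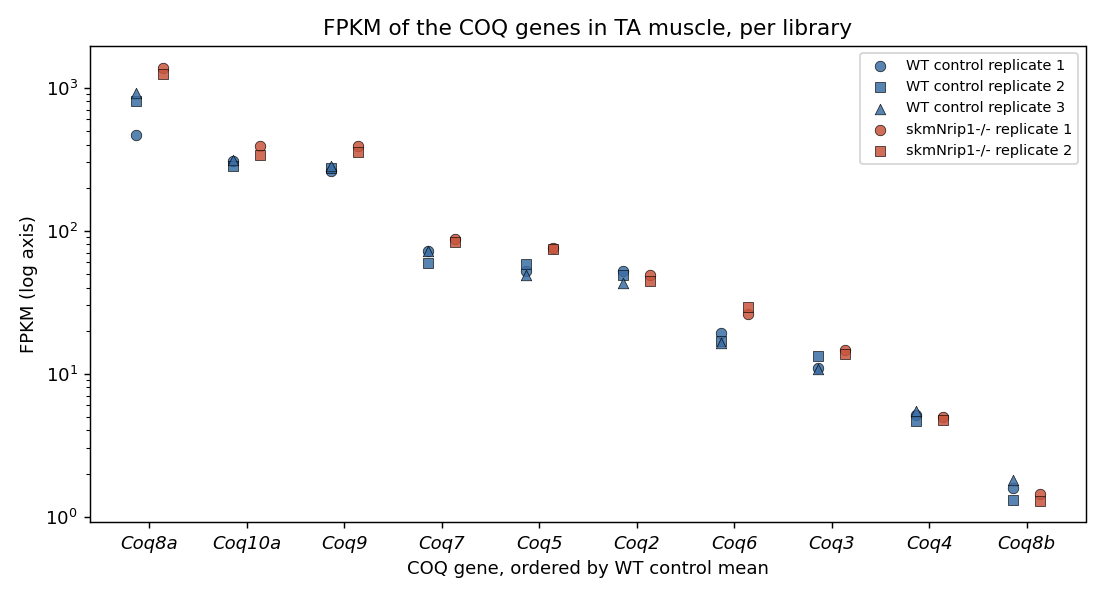
FPKM (log axis) of each COQ gene in the 3 WT control libraries (blue) and the 2 libraries labelled skmNrip1-/- (red), with 1 point per library and genes ordered by WT control mean. Levels run from 727 FPKM for Coq8a to 1.57 for Coq8b in WT control, and the red points lie above all blue points for 7 genes.

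The levels of these genes, which FPKM gives per transcript length, spanned a wide range. In WT control TA the order was Coq8a (727 ± 235 FPKM, SD, n = 3), Coq10a (301 ± 16.5), Coq9 (273 ± 9.66), Coq7 (67.9 ± 7.11), Coq5 (53.3 ± 4.80), Coq2 (47.8 ± 4.66), Coq6 (17.4 ± 1.55), Coq3 (11.6 ± 1.40), Coq4 (5.09 ± 0.409) and Coq8b (1.57 ± 0.252). In this order, Coq10a overlapped with Coq9 and Coq5 overlapped with Coq2, while the libraries of all other neighbours were separate. In the libraries labelled skmNrip1-/-, the means of Coq9 and Coq10a changed places, at 372 and 363 FPKM, and again overlapped. Coq5 no longer overlapped with Coq2 there. Coq8a alone held 37.2%, 51.4% and 53.6% of the summed FPKM of the 10 genes in the WT control libraries, and 57.0% and 56.9% where the label was skmNrip1-/-. That sum was 1250, 1559 and 1710 FPKM in WT control and 2421 and 2183 FPKM in the libraries labelled skmNrip1-/-.

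Coq2 encodes the polyprenyltransferase that attaches the tail to the ring, the step that commits the precursors to coenzyme Q. It lies on the minus strand of chromosome 5, 100654723 to 100675140 (GRCm38, as are all positions here). Its FPKM was 52.0, 48.6 and 42.8 in WT control and 49.0 and 44.7 in the libraries labelled skmNrip1-/-. The red and blue values interleave in the plot of levels. The log2 fold change was -0.03, with a 95% interval from -0.31 to 0.26 (adjusted p = 0.962 from limma), and its sign depended on the setting used.

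The ring is then hydroxylated, decarboxylated and methylated. Coq6, a flavin-dependent monooxygenase that hydroxylates the ring (plus strand of chromosome 12, 84361657 to 84373796), was at 19.2, 16.9 and 16.3 FPKM in WT control and at 26.2 and 29.1 FPKM in the libraries labelled skmNrip1-/-. The lowest of the latter was above the highest of the former by more than the range within WT control. Its log2 fold change of 0.66 (SE 0.12) had the lowest adjusted p among the 10 genes, 0.110 from limma. Coq3, the methyltransferase that acts on ring oxygens (plus strand of chromosome 4, 21879673 to 21912162), was at 10.9, 13.2 and 10.7 FPKM in WT control and at 14.6 and 13.8 FPKM in the libraries labelled skmNrip1-/-. The groups were separate, but the gap between WT control replicate 2 and the lower of the latter libraries was small beside the spread within WT control. Its log2 fold change was 0.29 (SE 0.13, adjusted p = 0.458 from limma).

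Coq5, the methyltransferase that acts on a ring carbon (plus strand of chromosome 5, 115279666 to 115296972), was at 52.4, 58.4 and 48.9 FPKM in WT control and at 75.9 and 74.2 FPKM in the libraries labelled skmNrip1-/-. Both of the latter exceeded every WT control library by more than the WT control range, with a log2 fold change of 0.50 (SE 0.11, adjusted p = 0.178 from limma). Coq7, the hydroxylase of the late intermediate demethoxyubiquinone (minus strand of chromosome 7, 118509659 to 118533356), was at 71.8, 59.7 and 72.2 FPKM in WT control and at 87.1 and 83.7 FPKM in the libraries labelled skmNrip1-/-. Its groups were separate, with WT control replicate 2 the lowest library. The log2 fold change of Coq7 was 0.34 (SE 0.12, adjusted p = 0.353 from limma).

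Coq9 encodes a lipid-binding protein that works with COQ7 and presents its substrate. It lies on the plus strand of chromosome 8, 94838321 to 94854895, and was at 263, 273 and 282 FPKM in WT control and at 390 and 353 FPKM in the libraries labelled skmNrip1-/-. The WT control libraries were tight, and both other libraries were well above them. The log2 fold change was 0.44 (SE 0.11, adjusted p = 0.202 from limma). Coq7 and its partner therefore lay on the same side, while Coq9 was several times more abundant per length than Coq7 in every library.

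Coq4, which is needed for the assembly to form and for removal of the ring's carboxyl group, lies on the plus strand of chromosome 2, 29787493 to 29797935. It was at 5.15, 4.65 and 5.46 FPKM in WT control and at 4.97 and 4.76 FPKM in the libraries labelled skmNrip1-/-. Both of the latter fell inside the WT control range, and the log2 fold change was -0.06, with a 95% interval from -0.36 to 0.24 (adjusted p = 0.895 from limma). Coq10a encodes a START domain protein that binds coenzyme Q and is needed for its use in respiration rather than for its synthesis. It lies on the minus strand of chromosome 10, 128363100 to 128368997, and was at 309, 282 and 313 FPKM in WT control and at 391 and 336 FPKM in the libraries labelled skmNrip1-/-. Replicate 2 of the latter was only slightly above the highest WT control library, and the log2 fold change was 0.27 (SE 0.12, adjusted p = 0.459 from limma).

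**Figure D2:**
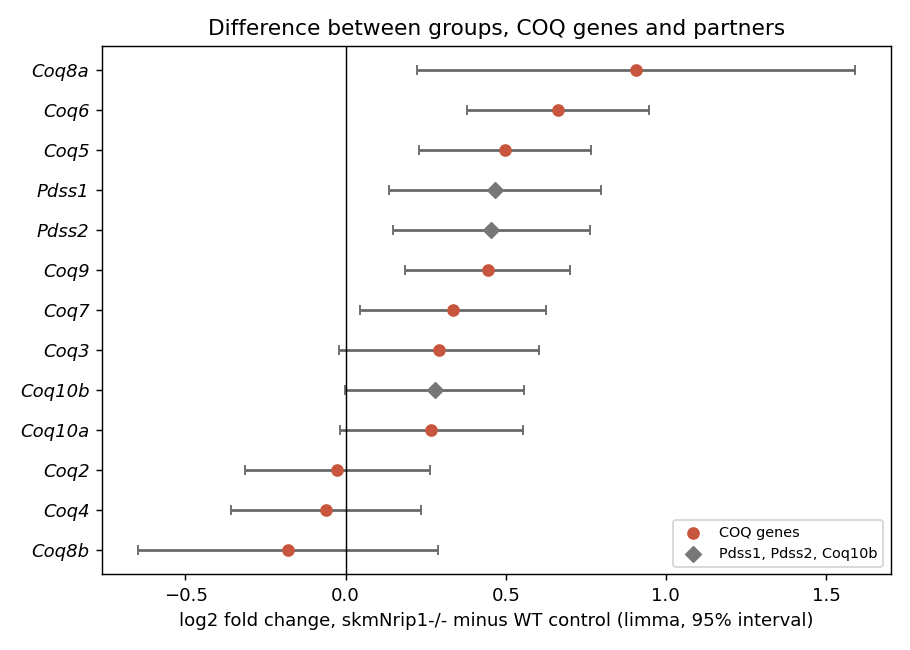
Log2 fold change (x axis, libraries labelled skmNrip1-/- minus WT control, limma on log2(FPKM + 0.1)) with its 95% interval, not adjusted for the number of genes, for the 10 COQ genes (circles) and for Pdss1, Pdss2 and Coq10b (diamonds). Values run from -0.18 for Coq8b to 0.91 for Coq8a. The intervals of Coq8a, Coq6, Coq5, Coq9, Coq7, Pdss1 and Pdss2 lie above 0.

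Coq8a and Coq8b are paralogs of the UbiB family, atypical kinase-like proteins with ATPase activity that support the assembly of COQ enzymes. Loss of COQ8A in people causes cerebellar ataxia with exercise intolerance, and loss of COQ8B causes kidney disease. Coq8a lies on the minus strand of chromosome 1, 180165238 to 180199602, and Coq8b on the plus strand of chromosome 7, 27233023 to 27257950. Coq8a was at 464, 801 and 916 FPKM in WT control and at 1381 and 1242 FPKM in the libraries labelled skmNrip1-/-. Its groups were separate, but WT control replicate 1 was far below the other WT control libraries. The log2 fold change of 0.91 was the highest of the 10 genes and also had the largest SE, 0.29 (adjusted p = 0.295 from limma). Without WT control replicate 1 it was 0.61 (adjusted p = 0.173 from limma).

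Coq8b was at 1.59, 1.31 and 1.81 FPKM in WT control and at 1.44 and 1.29 FPKM in the libraries labelled skmNrip1-/-. The groups overlapped, and the log2 fold change was -0.18, with a 95% interval from -0.65 to 0.29 (adjusted p = 0.795 from limma). Per transcript length, Coq8a exceeded Coq8b by 291, 611 and 506 times in the WT control libraries and by 960 times in both libraries labelled skmNrip1-/-. On the log2 scale this ratio was 8.72 ± 0.55 (SD, n = 3) and 9.80 ± 0.0066 (SD, n = 2), so the 2 genes differed in their change between groups by 1.09. The ratio does not depend on how libraries are scaled to each other, apart from the pseudocount. A two-sided exact permutation test over libraries gave p = 0.2, the smallest value that this test can give with 10 splits, so it cannot fall below 0.05 here, and no other test was made of this contrast. Without WT control replicate 1 the difference was 0.78.

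**Figure D3:**
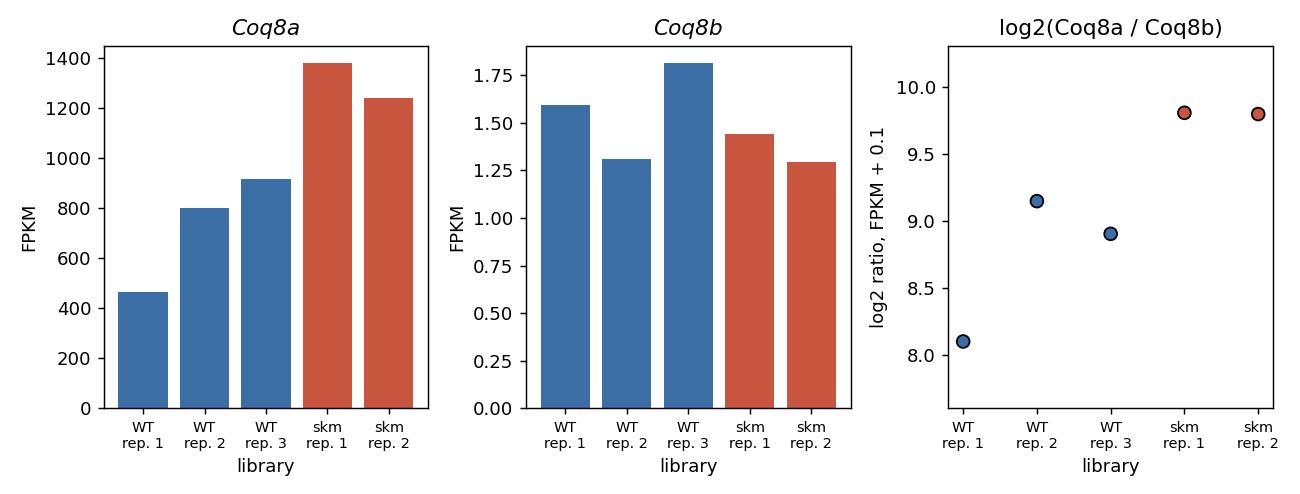
FPKM of Coq8a (left) and Coq8b (middle), drawn as bars from 0 on different axes, and their log2 ratio (right, FPKM + 0.1) in each WT control library (WT, blue) and each library labelled skmNrip1-/- (skm, red). Coq8a is between 464 and 916 FPKM in the WT control libraries and at 1381 and 1242 in the others, Coq8b stays between 1.29 and 1.81, and the ratio is highest in the red libraries.

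The genes whose pattern over the 5 libraries was most like that of Coq8a, by Pearson's r of log2(FPKM + 0.1) outside the COQ genes, were Txnip, an inhibitor of thioredoxin (r = 0.997), Zfp236 (r = 0.996) and Acadvl (r = 0.996). Acadvl encodes the very long-chain acyl-CoA dehydrogenase and was at 228, 322 and 332 FPKM in WT control and at 441 and 396 FPKM in the libraries labelled skmNrip1-/-. It shares with Coq8a a lowest value in WT control replicate 1. For Coq8b the most similar genes were Nt5c2 (r = 0.999), Zhx3 (r = 0.998) and Tmem158 (r = 0.996). With 5 libraries such values describe a similar pattern and no more, and 16 and 12 genes, respectively, reached an r of 0.99 or more.

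Some of the 10 genes share sequence with neighbours. Exons of 5 of them overlap exons of another annotated gene. The overlap is 921 bases for Coq4 with Trub2, 366 for Coq8a with Cdc42bpa, 128 for Coq6 with Fam161b and 38 for Coq9 with Ciapin1, each on the opposite strand. For Coq8b it is 608 bases, with Gm15567 on the opposite strand and Gm44641 on the same strand. Whether fragments were assigned by strand is not given in the sources used here, and how much neighbours contribute was not tested.

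Promoters from RefSeq (GRCm38.p6, 250 bases before to 50 after each annotated start) matched 8 of the 10 genes with 11 starts. Their median GC content was 52.0% and their median count of CG dinucleotides 18, against 60.7% and 20 over 11820 promoters of tested genes. The windows shown are the 30 bases before the start for Coq8a, which has a CG-rich and a CG-poor start, for Coq6 and Coq9, which were higher in the libraries labelled skmNrip1-/-, and for Coq2 and Coq4, which overlapped. CG dinucleotides are in capitals, and each window is written 5′ to 3′ on the strand of its gene.
Coq8a, chr1:180196021-180196050, minus strand: gcagctaacaaacagCGgctcagccaatgg
Coq8a, chr1:180193486-180193515, minus strand: ttaaggacagggtgacctgagtcacaggta
Coq6, chr12:84361938-84361967, plus strand: tttcCGgttttgaagacagggctaaaacca
Coq9, chr8:94838383-94838412, plus strand: CGtCGcCGccctcagCGtgCGtgCGtgccc
Coq2, chr5:100674257-100674286, minus strand: cCGtCGccctggatgaCGccacCGacCGgc
Coq4, chr2:29787463-29787492, plus strand: gaactaaagcaaaacCGtgggtcCGCGtCG

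The promoters of Coq8a held 22 CG dinucleotides at the upstream start and 6 at the downstream start, and FPKM per gene does not say which start was used. The promoter of Coq9 held 39, that of Coq2 held 23, that of Coq4 held 13 and that of Coq6 held 12, and the counts of the higher genes and of the overlapping genes interleaved. Both strands were searched for motifs of factors of mitochondrial genes. The estrogen-related receptor element TCAAGGTCA was in 0 of the 11 promoters and in 0.423% of 32851 promoters, the core of the NRF1 element, CGCATGCG, in 0 and in 1.87%, and the direct repeat bound by PPAR and RXR in 0 and in 0.0396%. The core of the YY1 element, AAGATGGC, was in 2.75% of all promoters and in 1 of the 11, that of Coq9, where it begins at base 7 counted from the annotated start and is in capitals in the next window. These matches describe letters only.
Coq9, chr8:94838408-94838437, plus strand: tgcccacttccAAGATGGCggcgacagcag

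The steps around these genes were followed with lists, none of which held a called gene. Pdss1 and Pdss2, the subunits of the enzyme that makes the isoprenoid tail, and Coq10b, the paralog of Coq10a, were each higher in the samples labelled skmNrip1-/- without overlap. Over all genes tested, 15.8% were higher in this way. Pdss1 was at 7.50, 8.77 and 6.72 FPKM in WT control and at 10.5 and 10.6 FPKM in the libraries labelled skmNrip1-/-, a log2 fold change of 0.47 (SE 0.14, adjusted p = 0.280 from limma). The smallest value of this list was 0.28, for Coq10b. Of 10 genes of the mevalonate pathway, which supplies the tail's building blocks, 5 were above 0, against 49.9% of all genes tested. Their median log2 fold change was -0.01. The extremes were Fdps, the farnesyl diphosphate synthase, at -0.20 and Fdft1 at 0.59 (adjusted p = 0.129 from limma). Fdft1 encodes squalene synthase, which leads to sterols and not to coenzyme Q, and was at 57.7, 67.7 and 67.5 FPKM in WT control and at 100 and 93.2 FPKM in the libraries labelled skmNrip1-/-.

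Among 10 genes of head group synthesis, electron supply to COQ6, and control of the pathway, 8 were above 0, against 49.9% of all genes. Of the 10, 5 were higher without overlap between groups, against 15.8% of all genes tested, and the median log2 fold change was 0.23. The highest was Hpdl, an enzyme of head group synthesis, at 0.80 (adjusted p = 0.440 from limma), although its FPKM did not exceed 1.31. The lowest was Fdx2 at -0.14, a mitochondrial ferredoxin that the table names Fdx1l. Of the other members of the UbiB family, Adck1 was at 0.30, Adck2 at 0.04 and Adck5 at -0.17.

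The genes that give electrons to coenzyme Q and take them from it were compared as well. Among 11 tested genes of ubiquinone reductases outside complex I, 8 were above 0, against 49.9% of all genes tested. Of the 8, 3 were at a p of 0.05 or less before adjustment (limma), against 6.57% of all genes tested. Without overlap between groups, 5 of the 11 were higher and 1 lower, against 15.8% and 14.4% of all genes. The median log2 fold change of this list was 0.15. Etfdh, which passes electrons from fatty acid oxidation to coenzyme Q, was highest, at 64.8, 94.3 and 75.8 FPKM in WT control and at 142 and 132 FPKM in the libraries labelled skmNrip1-/-. These groups were separate, with a log2 fold change of 0.83 (SE 0.17, adjusted p = 0.136 from limma). Prodh2, the hydroxyproline dehydrogenase, was lowest, at -0.60, with no more than 0.740 FPKM in any library. All 10 genes of complex III and cytochrome c were above 0, with a median of 0.23. The highest value was 0.44 for Uqcrc2 and the lowest 0.07 for Uqcrh. Groups overlapped for 5 of the 10, and 5 were higher without overlap, against 15.8% of all genes tested. At a p of 0.05 or less before adjustment (limma), 4 of the 10 were higher, against 6.57% of all genes. The medians of both lists lay between those of the mevalonate pathway and of the COQ genes, and the differences between lists were not tested.

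**Figure D4:**
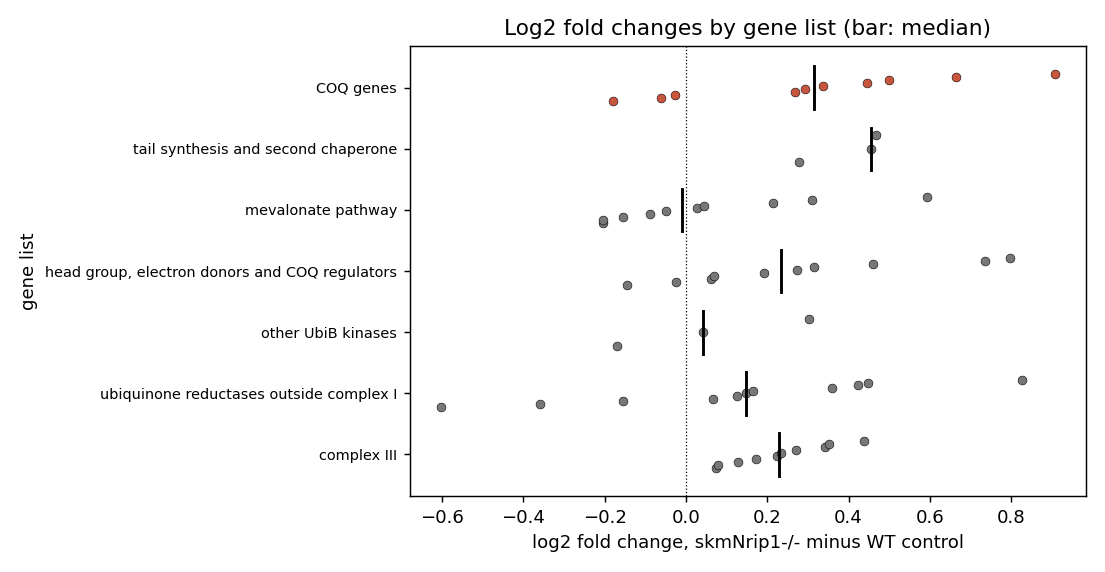
Log2 fold change of each tested gene (points, x axis, libraries labelled skmNrip1-/- minus WT control) in the COQ genes (red) and 6 lists of related genes (gray), with the median of each list as a bar. The medians are 0.31 for the COQ genes, 0.45 for tail synthesis and Coq10b, and -0.01 for the mevalonate pathway, and no point is a called gene.

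Markers of other cells and fiber types were read in the same libraries, and no listed marker was at 0 in any of them. Summed over 5 red blood cell genes, FPKM was 511 to 764 in WT control and 827 and 996 in the libraries labelled skmNrip1-/-. Of the 5, 3 were higher at a p of 0.05 or less before adjustment (limma), against 6.57% of all genes tested. Summed levels overlapped between groups for macrophage genes (9.60 to 20.8 against 12.7 and 15.7 FPKM), adipocyte genes (7.91 to 14.3 against 12.3 and 12.4), nerve and Schwann cell genes (26.9 to 40.0 against 24.2 and 34.1) and fibroblast genes (186 to 280 against 217 and 339). For 6 endothelial genes the sums were 115 to 130 in WT control and 106 and 111 in the libraries labelled skmNrip1-/-, although each of the 6 genes overlapped. For 8 skeletal muscle fiber genes they were 70544 to 93564 against 67951 and 70578 FPKM, with single genes on opposite sides. Mb, the oxygen-binding myoglobin, was at 4522, 4329 and 5157 FPKM in WT control and at 7764 and 7664 FPKM in the libraries labelled skmNrip1-/- (log2 fold change 0.73, adjusted p = 0.160 from limma). Actn3, the actinin of fast fibers, was at 3558, 2712 and 2701 FPKM against 1739 and 1744 FPKM (log2 fold change -0.77, adjusted p = 0.169 from limma). The slow and oxidative fiber list summed to 327 to 1409 FPKM in WT control, where Myh2, the myosin of type 2A fibers, was at 1102 in replicate 3 against 223 and 333, and to 476 and 521 FPKM in the libraries labelled skmNrip1-/-. Within this list, the slow myosin light chains also lay on opposite sides. Myl2 was at 2.03, 1.85 and 9.68 FPKM in WT control and at 42.1 and 33.6 FPKM in the libraries labelled skmNrip1-/- (log2 fold change 3.46, adjusted p = 0.127 from limma), and Myl3 was at 89.6, 124 and 285 FPKM against 54.1 and 71.3 FPKM (log2 fold change -1.24, adjusted p = 0.359 from limma). None of Mb, Actn3, Myl2 and Myl3 was called, and each had groups that did not overlap. Over all genes tested, 15.8% were higher and 14.4% lower without overlap. Groups overlapped for 4 of the 8 skeletal muscle fiber genes and for 5 of the 7 slow and oxidative ones. The latter were Myh7, Myh2, Tnni1, Tnnc1 and Tnnt1. The part of these differences in the values of the COQ genes was not tested. In bulk muscle, a change in the number of fibers or cells that express a gene cannot be told apart from a change in RNA per cell.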

How the data were processed

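Libraries of TA muscle RNA were made with the NEBNext Ultra RNA kit, and reads were quantified with Salmon 1.10.2 on mm10 and brought to gene level by tximport. The authors deposited values in FPKM. How these were computed, and on which annotation release, is not given in the sources used here. For each library, the ratio of FPKM to the geometric mean over libraries was taken per gene. Its median was 1.00171 in every library, while summed FPKM ran from 969144 to 1288040. The deposited values were therefore already scaled to an equal median ratio and not to an equal sum. Their table also holds log2 fold changes and adjusted p-values from DESeq2 1.44.0, deposited by the authors for the same groups and not used here. FPKM are not counts, so DESeq2, the study's tool, was replaced by limma 3.58.1 (R 4.3.3, lmFit and eBayes with a trend) on log2(FPKM + 0.1). All 5 libraries entered 1 fit without covariates, and p-values were adjusted over 12148 genes whose mean reached 0.5 FPKM. Fold changes on this scale understate changes of low genes. Depth is unknown. Ratios of low FPKM values between libraries shared a common step in only 49 to 62 of 1363 genes, so no relative depth was taken from them. The labels do not name separate animals for the libraries, so p-values measure the spread between libraries.

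Columns were assigned to samples by the number in their names and descriptions. Positions came from GENCODE M21 (GRCm38), which holds 16996 of the 17015 gene IDs and all 10 COQ genes under the same names. Fdx2 was matched to Fdx1l through RefSeq synonyms. The members, lists and motifs were chosen with earlier results of these data known. Named genes are Nrip1, the COQ genes, the highest and lowest tested gene of each pathway list, and the 3 genes most correlated with Coq8a and with Coq8b. Pdss2, Adck2, Acta1, Mb, Actn3, Myh2, Myl2 and Myl3 lie outside this rule and were named after their values were seen. The alternatives were a pseudocount of 1 or 0.01, other minimums, 3 rescalings, other eBayes settings, a replicate block, other call thresholds and leaving out each library. Adjustments for transcript length and GC content (LOWESS, span 0.3) were added after seeing the data. The software was Python 3.11.15 (scipy 1.17.1, numpy 2.4.6, pandas 2.3.3) with figures from matplotlib 3.10.9.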

Additional observations from a re-analysis of the deposited data

How the results depend on the processing

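No COQ gene was called under any of the alternatives tried. Of 170 single-gene values under alternatives, 162 kept their direction, and all values of Coq5, Coq6, Coq7, Coq8a, Coq8b and Coq9 did. Part of this was fixed in advance. Other minimums and other eBayes settings cannot change a fold change. Rescaling by the median of ratios divides every library by the same number. The replicate block repeats the fold changes found without WT control replicate 3. The count of genes higher at a p of 0.05 or less, 5 as reported, was 1 after rescaling to TPM and ranged from 2 to 6 when each library was left out, against 6.57%, 1.33% and 3.39% to 8.03% of all genes. The count higher without overlap was 3 after rescaling to TPM and 7 whichever library was left out, against 2.8% and 19.9% to 27.3% of all genes. The median log2 fold change was 0.016 after rescaling to TPM and 0.39 after rescaling over nuclear genes, 0.31 and 0.32 above the median of all genes, and ranged from 0.28 to 0.37 when each library was left out. The Coq8a to Coq8b difference ranged from 0.78 to 1.30 on leaving out libraries. Rescaling to TPM reversed Coq3 (-0.0055) and Coq10a (-0.032). Coq2 reversed after rescaling over nuclear genes (0.050), without WT control replicate 1 (0.037), without skmNrip1-/- replicate 2 (0.039) and after adjustment for transcript length (0.010) or GC content (0.030), and Coq4 after rescaling over nuclear genes (0.013). On leaving out each library, Coq2 ranged from -0.10 to 0.039. The cause was not tested.

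Replicates 1 and 2 share their numbers between groups but come from different mice, and deviations of same-numbered libraries correlated at 0.065 and 0.095. With the replicate number as a block, 5 COQ genes were higher at a p of 0.05 or less, 0 were called, and the median was 0.34. The same block gave a Coq8a to Coq8b difference of 1.18. WT control replicate 3 has no partner, so the block gives the same fold changes as leaving that library out. It is not a separate check of them. Leaving out a library labelled skmNrip1-/- leaves 1, which is then assumed to vary like WT control.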
